A study of Homo sapiens with 38 samples.

Results

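The 35 genes described here act at the G2-M transition and in mitosis. They were chosen by name from the 43412 gene rows of a count table made from total RNA of H9 human embryonic stem cells, an established pluripotent line. All 35 were found, and all 35 were among the 24304 genes with enough reads to be tested. By role they were 6 genes of the cyclin B-CDK1 switch, 3 mitotic kinases, and 9 genes of the spindle checkpoint, kinetochore and centromere. Another 2, CDC20 and UBE2C, were partners of the anaphase-promoting complex. The rest were 8 kinesins and spindle proteins, 5 genes of the central spindle and cytokinesis, and 2 genes of chromosome structure.

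As background, a cell enters mitosis when CDK1 bound to cyclin B is switched on by CDC25 phosphatases, and the Aurora and Polo-like kinases then build the spindle. Checkpoint proteins at unattached kinetochores hold back the anaphase-promoting complex, which with CDC20 destroys cyclin B once every chromosome is attached. Transcripts of these genes are repressed in G1, are made in G2 under MYBL2 and FOXM1, and are lost after division, and pluripotent stem cells pass through a short G1, so that such transcripts are abundant in them. In bulk libraries fewer cells of a type and less RNA per cell cannot be told apart.

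The study followed 3 ways of raising beta-catenin signalling over time, each as an arm of its own. H9 cells were given 10 µM CHIR99021, an inhibitor of the kinase GSK3 that marks beta-catenin for destruction, for 8, 16, 24, 48 or 72 h, with 2 libraries per time. H9 cells carrying a stably integrated, doxycycline-regulated deltaN90 mutant of beta-catenin (called bcat), which escapes destruction, were given 1 µg/ml doxycycline for 8, 16, 24, 48 or 72 h, with 2 libraries per time. H9 cells were given 240 ng/ml recombinant Wnt3a for 8, 24, 48, 96 or 120 h with 2 libraries per time and for 72 h with 1, since the deposited 72 h columns held identical values. Each arm had its own 0 h group of 2 libraries, which was untreated H9 in the CHIR99021 and Wnt3a arms and the uninduced line in the bcat arm. All cells were seeded at full confluency and grown in mTESR1, and treatment began together with a change to RPMI1640 with B27 lacking vitamin A, both renewed daily. Cultures in the new medium alone were not analysed here, so treatment, medium and time cannot be told apart. The labels call the libraries biological replicates without saying how they were separated, so p-values measure the spread between these libraries. Whether the bcat line is 1 clone is not given in the sources used here.

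Library totals ran from 2.45 M reads in replicate 1 of Wnt3a 0 h to 65.75 M in replicate 2 of Wnt3a 0 h, with a median of 18.99 M. Ribosomal RNA genes took 34.1% of reads in replicate 1 of bcat 0 h, 60.4% in replicate 1 of bcat 24 h and 60.3% in replicate 2 of bcat 48 h, against a median of 5.13%. Those 3 libraries and the shallow replicate 1 of Wnt3a 0 h are the 4 libraries in doubt, and counts without them are given where they differ by over 1.5 times. Mitochondrial rRNA took 0.30 to 1.35% of reads in the bcat arm, against 6.58 to 16.3% in the other arms. All 7 pluripotency markers were detected, that is above 0, in every group. Their lowest levels were 0.55 CPM for NANOG, 0.707 CPM for TDGF1, 5.57 CPM for SOX2 and 29.6 CPM for ZFP42. DPPA4, POU5F1 and LIN28A had lowest levels of 82.0, 107.3 and 1192 CPM. Sums over the 7 markers can therefore hide a near loss of single ones. Of 4 neural markers PAX6 was at 0 in 33 of 37 libraries, and SOX1, OTX1 and SIX3 were at 0 in 5, 5 and 6. Of 6 fibroblast genes LUM was at 0 in 30 libraries, POSTN in 2 and DCN, at most 0.633 CPM, in 3. COL1A1 (14.1 to 63.5 CPM), COL1A2 (73.1 to 431.7 CPM) and THY1 (23.2 to 325.2 CPM) were at 0 in none. LUM reached at most 3.92 CPM and POSTN 8.78 CPM, so sums over the 6 rest mainly on COL1A1, COL1A2 and THY1.

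A gene is called higher or lower where its adjusted p is below 0.05. Levels are CPM, the count per M reads of scaled library size, which allow 1 gene to be compared between libraries and not 1 gene with another. Changes are fitted log2 differences with their standard error (SE), and medians are over the 35 genes. Comparisons within an arm share the same 0 h libraries, so their counts are not independent of each other. Where groups are said not to overlap, this describes the values of the named genes. With 2 libraries a group it is no test, and its share over all tested genes was not counted. Of 204 calls on the 35 genes over the 16 comparisons with 0 h, 110 held in every fit that left out 1 library of the groups compared.

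**Figure D1:**
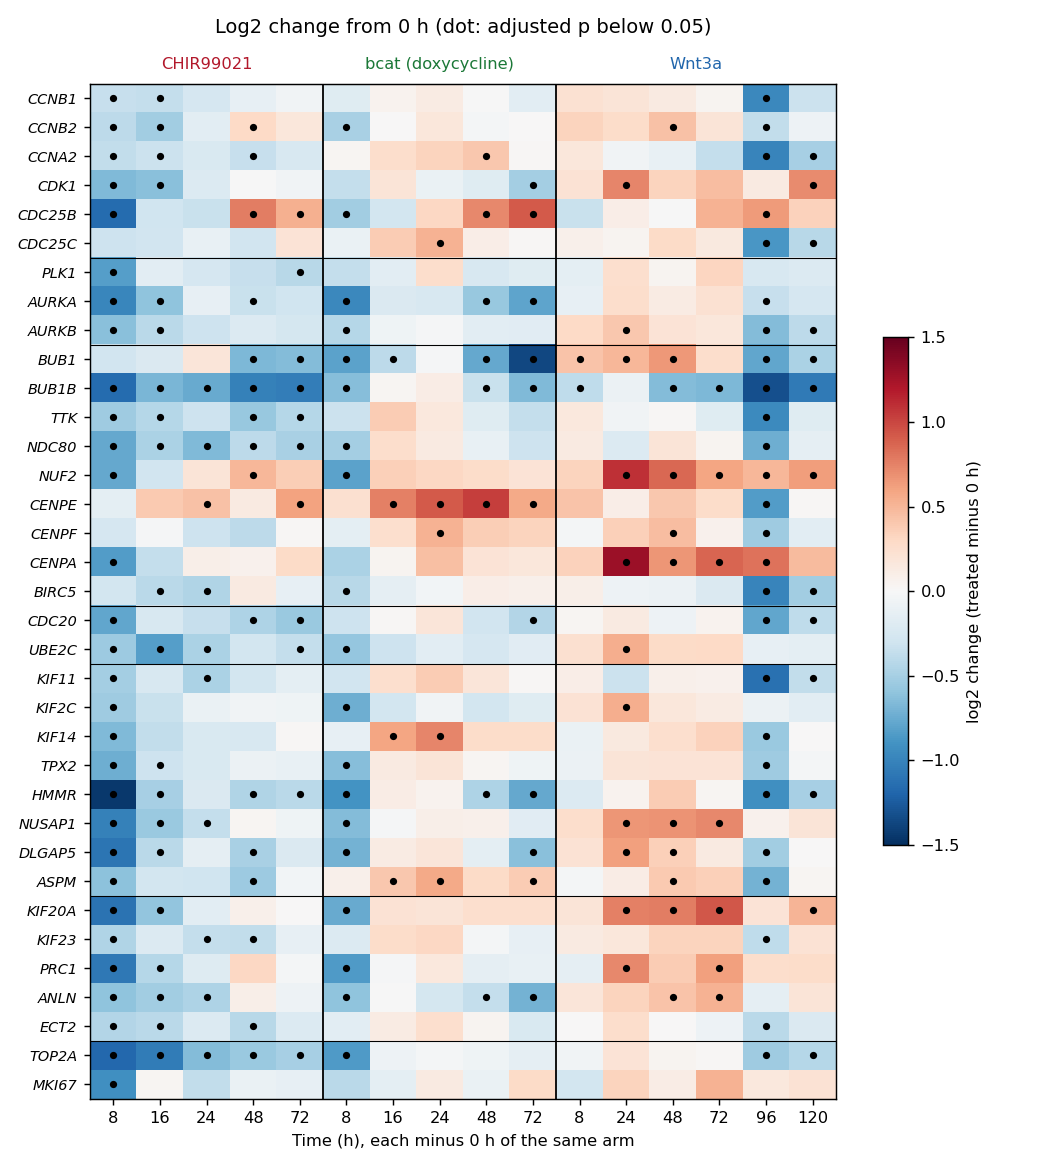
Fitted log2 change from 0 h of each of the 35 genes (rows, grouped by role) at each time (columns, in h) in the CHIR99021, bcat and Wnt3a arms; red is higher and blue lower than 0 h, and a dot marks an adjusted p below 0.05. The CHIR99021 8 h and Wnt3a 96 h columns are mostly blue, with 30 and 23 genes called lower.

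Nearly the whole set was lower at 8 h of CHIR99021 than at 0 h. Of the 35 genes 30 fell and 0 rose, where 11.7% of all tested genes fell and 9.19% rose. The median log2 change was -0.67, against -0.015 over all tested genes, and all 35 fitted changes lay below 0. The summed level of the 35 genes was 2929 and 3012 CPM at 8 h, against 4667 and 4852 CPM at 0 h. The falls covered 5 of 6 genes of the cyclin B-CDK1 switch, 3 of 3 mitotic kinases and 5 of 9 checkpoint and kinetochore genes. They also covered 2 of 2 partners of the anaphase-promoting complex and 8 of 8 kinesins and spindle proteins. Genes of the central spindle and cytokinesis fell in 5 of 5 cases, and those of chromosome structure in 2 of 2. All 4 primitive streak markers were detected, with a summed level of 66.96 to 88.32 CPM at 8 h, against 0.654 to 0.740 CPM at 0 h. The 6 fibroblast genes, mainly COL1A1, COL1A2 and THY1, summed to 258.4 to 267.6 CPM, against 441.8 to 454.0 CPM. Mitochondrial rRNA took 14.3 and 11.4% of reads at 8 h, against 7.52 and 7.84% at 0 h. The part of the markers or of this RNA in the result was not tested.

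In the cyclin B-CDK1 switch, CDK1 stood at 73.7 and 84.2 CPM at 8 h, against 124 and 126 CPM at 0 h. It fell by 0.67 ± 0.15 (SE) on the log2 scale with an adjusted p of 0.00138. CDC25B, a phosphatase that activates CDK1, fell by 1.15 ± 0.16 (adjusted p = 2.13e-06). The cyclins had smaller fitted changes. CCNB1, the main mitotic cyclin, had 161 and 173 CPM at 8 h, against 209 and 215 CPM at 0 h, and its change of -0.35 ± 0.12 had an adjusted p of 0.035. CCNA2, the cyclin of S phase and G2, had 134 and 146 CPM at 8 h, against 179.8 and 183 CPM at 0 h, with a change of -0.38 ± 0.11 and an adjusted p of 0.0146. For CDK1, CCNB1 and CCNA2 the groups did not overlap.

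All 3 mitotic kinases fell. PLK1, which triggers mitotic entry and centrosome maturation, had 46.1 and 46.4 CPM at 8 h, against 84.2 and 79.6 CPM at 0 h (log2 change -0.82 ± 0.15, adjusted p = 0.000138). AURKA, the centrosome and spindle kinase, had 52.1 and 52.6 CPM at 8 h, against 96.5 and 109 CPM at 0 h (-0.97 ± 0.12, adjusted p = 3.1e-07). AURKB, the kinase that corrects chromosome attachment, fell by 0.63 ± 0.12 (adjusted p = 0.000169).

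Some checkpoint and kinetochore genes were called lower and others missed the threshold, though all their fitted changes lay below 0. The difference between these genes was not tested. BUB1B, which encodes the checkpoint inhibitor BUBR1, had 91.8 and 100.5 CPM at 8 h, against 205 and 222 CPM at 0 h, a fall of 1.15 ± 0.11 (adjusted p = 3.66e-09). TTK, NDC80, NUF2 and CENPA also fell, with log2 changes from -0.84 to -0.53. BUB1, the checkpoint kinase, stood at 232 and 229 CPM at 8 h, against 276 and 287 CPM at 0 h, and missed the threshold (-0.29 ± 0.11, adjusted p = 0.053). CENPF, a late kinetochore protein, had 192 and 198 CPM at 8 h, against 216 and 249.8 CPM at 0 h (-0.26 ± 0.16, adjusted p = 0.283). The other genes of the 35 not called were CDC25C (-0.31), CENPE (-0.14) and BIRC5 (-0.28).

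The largest fall of all 35 genes was that of HMMR, a microtubule-binding protein of the spindle poles. It had 35.3 and 44.0 CPM at 8 h, against 107 and 109.9 CPM at 0 h, a 2.74-fold lower level (log2 change -1.45 ± 0.14, adjusted p = 6.76e-09). TOP2A, the topoisomerase that untangles sister DNA, had 284 and 291 CPM at 8 h, against 630.3 and 669.6 CPM at 0 h (-1.17 ± 0.12, adjusted p = 3.38e-08). MKI67, the coat protein of mitotic chromosomes used as a proliferation marker, had 55.6 and 57.7 CPM at 8 h, against 122 and 92.0 CPM at 0 h (-0.92 ± 0.16, adjusted p = 0.000121).

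KIF11, the motor that pushes spindle poles apart, had 94.5 and 97.3 CPM at 8 h, against 134 and 139 CPM at 0 h (-0.51 ± 0.13, adjusted p = 0.00471). CDC20, which activates the anaphase-promoting complex, had 70.6 and 77.8 CPM at 8 h, against 128 and 127 CPM at 0 h (-0.78 ± 0.13, adjusted p = 4.86e-05). Each of these genes was lower in both 8 h libraries than in either 0 h library. Of the 30 calls 23 held in every fit with 1 library left out. CCNB1, CCNA2, CCNB2, KIF11, KIF2C, KIF23 and ECT2 lost theirs without replicate 1 of CHIR 8 h, at adjusted p-values of up to 0.233, 0.157, 0.068, 0.0548, 0.0599, 0.0556 and 0.115 over the libraries left out.

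The promoters of the set shared letters that the choice by name did not use. Cell cycle genes homology region (CHR) elements, read as TTTGAA or TTCGAA on either strand, are bound by the MuvB complex, and the CCAAT box is bound by NF-Y. In RefSeq promoters on GRCh38.p14, from 250 bases before to 50 after each start, 30 of the 35 genes had 39 entries (AURKA, TTK, TPX2, BIRC5 and UBE2C had none). CHR letters stood in 27 of the 39 entries (69.2%), against 16.4% of all 35116 entries, and CCAAT on either strand in 28 (71.8%), against 34.6%. Both stood in 22 (56.4%), against 6.4%. A match of letters is a description and not a binding site, and the share was not tested. The stretches below run 120 bases up to the base before the start, 5′ to 3′ on the gene's strand. They are examples from the genes called lower at CHIR99021 8 h, and capitals mark CHR letters.
HMMR: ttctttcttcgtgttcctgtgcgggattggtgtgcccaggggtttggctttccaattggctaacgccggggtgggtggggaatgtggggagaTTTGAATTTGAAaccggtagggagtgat
PLK1: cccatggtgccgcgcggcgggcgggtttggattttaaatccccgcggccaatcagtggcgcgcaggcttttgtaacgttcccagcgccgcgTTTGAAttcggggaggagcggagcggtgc
CDC20: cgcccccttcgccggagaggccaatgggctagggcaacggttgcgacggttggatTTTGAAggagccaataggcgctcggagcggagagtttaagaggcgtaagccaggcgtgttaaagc
BUB1B: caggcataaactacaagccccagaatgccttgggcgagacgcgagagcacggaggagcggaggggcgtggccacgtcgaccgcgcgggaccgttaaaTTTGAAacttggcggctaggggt
MKI67: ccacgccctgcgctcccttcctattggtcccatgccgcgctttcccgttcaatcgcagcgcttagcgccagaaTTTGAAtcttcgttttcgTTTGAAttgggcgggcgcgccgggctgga
TOP2A: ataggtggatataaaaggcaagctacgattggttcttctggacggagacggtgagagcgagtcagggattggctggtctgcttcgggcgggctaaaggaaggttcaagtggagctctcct
These lie at chr5:163460512-163460631 on the plus strand for HMMR, chr16:23678769-23678888 plus for PLK1, chr1:43358861-43358980 plus for CDC20, chr15:40160949-40161068 plus for BUB1B, chr10:128126424-128126543 minus for MKI67 and chr17:40417897-40418016 minus for TOP2A. The capitals begin 28 and 22 bases before the start in HMMR, 29 in PLK1, 65 in CDC20, 23 in BUB1B, and 47 and 29 in MKI67. The TOP2A stretch holds no CHR letters, and in its whole promoter window they begin 194 and 151 bases before the start. CCNB1, CCNA2, NDC80, NUF2, KIF2C, KIF14, NUSAP1 and KIF20A were also called lower at CHIR99021 8 h. Their stretches, which are not shown, hold no CHR letters either. Only TTTGAA and TTCGAA were searched, so missing letters do not show that a gene lacks a CHR element.

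**Figure D2:**
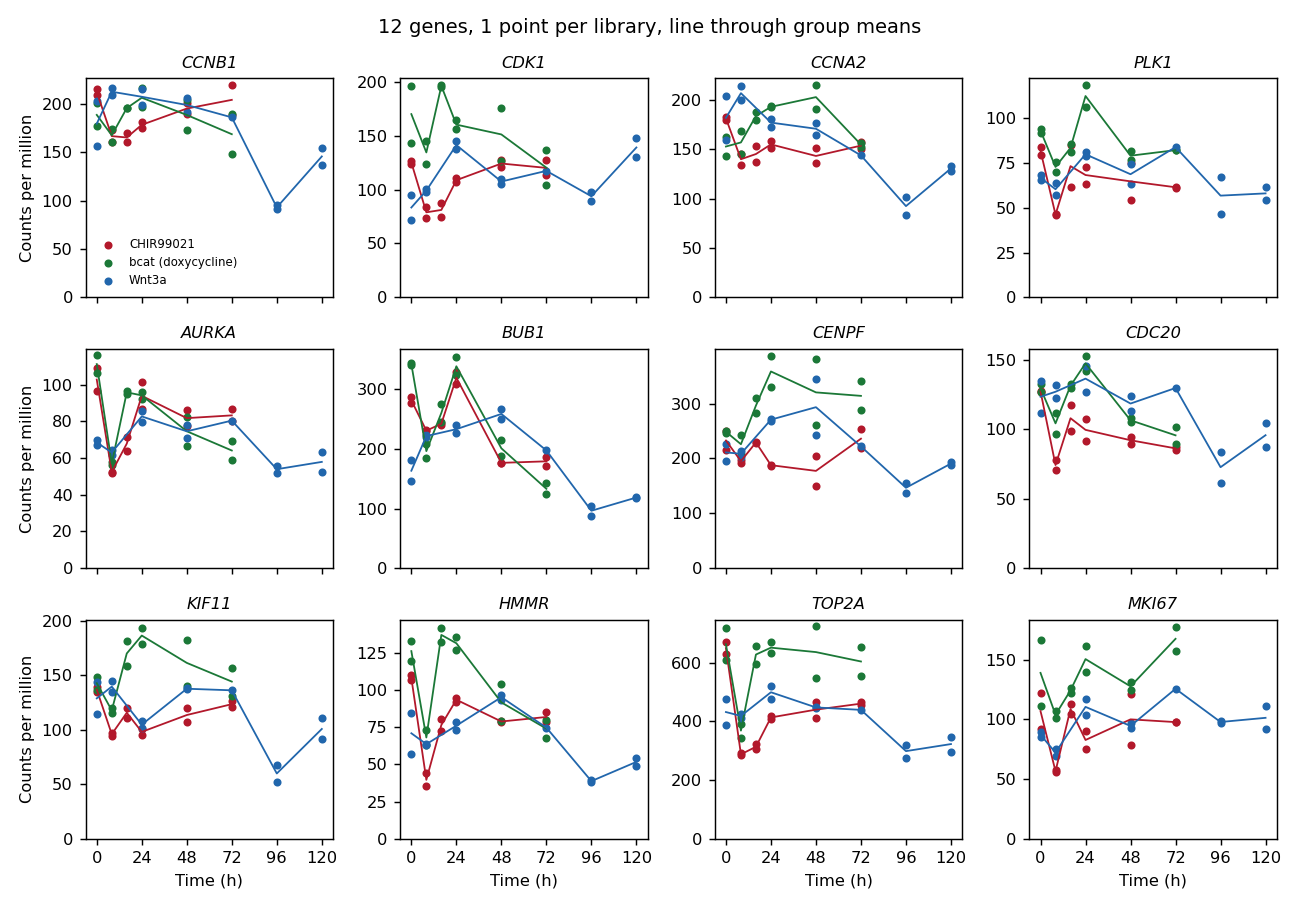
Level in CPM (y, from 0) of 12 genes with textbook roles against time in h (x), with 1 point per library and a line through the group means, for CHIR99021 (red), bcat (green) and Wnt3a (blue). HMMR and TOP2A drop at 8 h in the CHIR99021 and bcat arms, and BUB1 reaches its lowest bcat levels, 142 and 124 CPM, at 72 h.

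At 16 h of CHIR99021 20 genes were lower and 0 higher than at 0 h, where 9.34% and 6.54% of all tested genes were. TOP2A had 306 and 322 CPM at 16 h, against 630.3 and 669.6 CPM at 0 h (-1.05 ± 0.12, adjusted p = 2.29e-07). UBE2C, the ubiquitin-conjugating enzyme of the anaphase-promoting complex, had 62.6 and 63.3 CPM at 16 h, against 113 and 109.7 CPM at 0 h (-0.82 ± 0.12, adjusted p = 8.89e-06). The 16 h libraries of both genes lay below both 0 h libraries. Only 7 of the 20 calls held in every fit with 1 library left out, TOP2A, UBE2C, BUB1B, AURKA, CCNB2, KIF20A and NUSAP1. The count was 9 without replicate 2 of CHIR 0 h, 11 without replicate 1 of CHIR 16 h and 12 without replicate 2 of CHIR 16 h.

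At 24 h 9 genes were lower and 1 higher, against 8.61% and 5.9% of all tested genes. BUB1B had 131 and 122 CPM at 24 h, against 205 and 222 CPM at 0 h (-0.76 ± 0.11, adjusted p = 4.67e-06). NDC80, a kinetochore protein that grips microtubules, had 30.9 and 33.0 CPM at 24 h, against 49.1 and 52.1 CPM at 0 h (-0.66 ± 0.15, adjusted p = 0.00178). CENPE, the kinetochore motor that aligns chromosomes, had 111 and 110.0 CPM at 24 h, against 79.7 and 83.3 CPM at 0 h, and its rise of 0.44 ± 0.15 (adjusted p = 0.0472) was lost without any 1 of the 4 libraries, at up to 0.217. The count of 10 became 6 without replicate 1 of CHIR 0 h, 4 without replicate 2 of CHIR 0 h, 4 without replicate 1 of CHIR 24 h and 5 without replicate 2 of CHIR 24 h, and the 3 calls that held throughout were BUB1B, NDC80 and TOP2A.

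The step between 8 and 24 h was itself tested, and it was upward. Compared with 8 h, 20 genes were higher and 0 lower at 24 h, where 9.05% and 9.51% of all tested genes were. HMMR had 94.9 and 92.3 CPM at 24 h, against 35.3 and 44.0 CPM at 8 h (1.24 ± 0.14, adjusted p = 1.86e-07). DLGAP5, a spindle assembly protein, rose by 0.96 ± 0.12 (adjusted p = 1.33e-06). PLK1, at 63.6 and 73.1 CPM against 46.1 and 46.4 CPM at 8 h, was called (0.57 ± 0.15, adjusted p = 0.00751) but not in every fit with 1 library left out (up to 0.121). Of the 20 calls 12 held in every such fit, and without replicate 1 of CHIR 8 h the count was 13.

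Later CHIR99021 times split the set. At 48 h 13 genes were lower and 3 higher, where 18.1% and 15.7% of all tested genes were, so the higher share lay below that of all genes. BUB1B had 104 and 108 CPM at 48 h, against 205 and 222 CPM at 0 h (-1.01 ± 0.11, adjusted p = 6.98e-09). BUB1 had 177 and 176 CPM, against 276 and 287 CPM at 0 h (-0.67 ± 0.11, adjusted p = 7.9e-06). CDC25B rose to 41.1 and 42.4 CPM at 48 h, against 24.8 and 24.1 CPM at 0 h (0.77 ± 0.15, adjusted p = 0.000134). NUF2, a partner of NDC80, rose by 0.49 ± 0.15 (adjusted p = 0.0101), a call lost without replicate 1 of CHIR 0 h or replicate 2 of CHIR 48 h, at up to 0.0966. The count of 16 was 9 without replicate 2 of CHIR 0 h. The 7 pluripotency markers summed to 1689 to 1726 CPM at 48 h, against 4030 to 4096 CPM at 0 h. The 5 presomitic mesoderm markers summed to 134.8 to 154.2 CPM, against 3.37 to 3.91 CPM, and the 4 primitive streak markers to 243.3 to 263.5 CPM, against 0.654 to 0.740 CPM at 0 h. Their part in the result was not tested.

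At 72 h 9 genes were lower and 2 higher, against 13.4% and 11.5% of all tested genes. BUB1B had 102 and 105 CPM at 72 h, against 205 and 222 CPM at 0 h (-1.04 ± 0.11, adjusted p = 5.63e-09), and BUB1 had 187 and 171 CPM, against 276 and 287 CPM at 0 h (-0.65 ± 0.11, adjusted p = 1.97e-05). CENPE was higher at 128 and 119 CPM, against 79.7 and 83.3 CPM at 0 h (0.60 ± 0.15, adjusted p = 0.00286). CDC25B was higher by 0.53 ± 0.15 (adjusted p = 0.0082), a call lost without replicate 2 of CHIR 0 h or replicate 1 of CHIR 72 h, at up to 0.0975. The count of 11 was 7 without replicate 1 of CHIR 0 h or replicate 1 of CHIR 72 h, 5 without replicate 2 of CHIR 0 h and 6 without replicate 2 of CHIR 72 h.

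Step by step, 6 genes were higher and 2 lower at 48 h than at 24 h, against 12.7% and 12.9% of all tested genes. The total count thus lay near that of all genes. BUB1 fell to 177 and 176 CPM at 48 h, against 309.6 and 329.5 CPM at 24 h (-0.86 ± 0.11, adjusted p = 2.54e-07), and CDC25B rose by 1.10 ± 0.15 (adjusted p = 1.73e-06). BIRC5, which encodes the passenger protein survivin, rose by 0.59 ± 0.11 (adjusted p = 7.64e-05). With only the CHIR99021 libraries in the fit, 6 genes were higher and 7 lower at 48 h than at 24 h, and with rRNA genes removed 6 were higher and 4 lower. From 48 to 72 h 3 genes were higher and 0 lower, against 7.51% and 5.49% of all tested genes. They were ASPM, a spindle pole protein (0.50 ± 0.12, adjusted p = 0.00257), CDC25C (0.49 ± 0.14, adjusted p = 0.0213) and CENPE (0.47 ± 0.15, adjusted p = 0.0342), and without replicate 1 of CHIR 48 h the count was 0. With the DESeq2 size factors 3 were higher and 1 lower. In the main fit the higher share of this step lay near that of all genes.

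**Figure D3:**
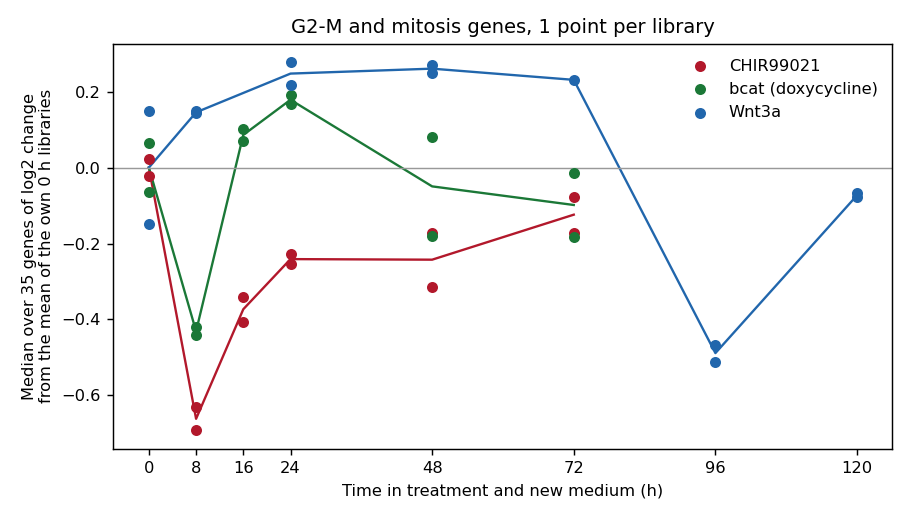
Median over the 35 genes of the log2 change of each library from the mean of its own 0 h libraries (y) against time in h (x), with 1 point per library, lines through group means and 0.5 CPM added before taking logs. CHIR99021 (red) and bcat (green) are lowest at 8 h, and Wnt3a (blue) is lowest at 96 h.

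Much of the set was also lower at 8 h of beta-catenin induction than at 0 h. Of the 35 genes 19 fell and 0 rose, where 8.01% of all tested genes fell and 10.7% rose. The median log2 change was -0.48, against 0.05 over all tested genes. The summed level was 3473 and 3767 CPM at 8 h, against 4853 and 5256 CPM at 0 h. Leaving out the 4 libraries in doubt gave 19 lower and 0 higher. The 4 primitive streak markers summed to 21.61 to 31.35 CPM at 8 h, against 0.294 to 1.07 CPM at 0 h, and their part in the result was not tested.

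AURKA fell to 56.3 and 57.7 CPM at 8 h of induction, against 106 and 116 CPM at 0 h (-0.97 ± 0.12, adjusted p = 8.22e-07). HMMR had 63.0 and 73.4 CPM at 8 h, against 119.7 and 133 CPM at 0 h (-0.90 ± 0.14, adjusted p = 2.65e-05). TOP2A had 345 and 393 CPM, against 609 and 718 CPM at 0 h (-0.85 ± 0.12, adjusted p = 8.88e-06). None of the 8 h libraries reached the level of a 0 h library for these genes. BUB1 had 185 and 208 CPM, against 340.2 and 344.5 CPM at 0 h (-0.80 ± 0.11, adjusted p = 2.58e-06).

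CCNB1, CCNA2 and CENPF were among the 16 genes not called at 8 h of induction. CCNB1 had 161 and 174 CPM at 8 h, against 177 and 201 CPM at 0 h (-0.18 ± 0.12, adjusted p = 0.358). CCNA2 had 146 and 168 CPM, against 144 and 162 CPM at 0 h (0.03 ± 0.12, adjusted p = 0.909), and its groups overlapped. CENPF had 209 and 243 CPM, against 247 and 251 CPM (-0.14 ± 0.16, adjusted p = 0.614). PLK1, CDC20, KIF11, CDK1 and MKI67 had changes of -0.35, -0.31, -0.28, -0.35 and -0.40, with adjusted p-values from 0.0953 to 0.157. Of the 19 calls 13 held in every fit with 1 library left out, AURKA, HMMR, TOP2A and BUB1 among them.

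At 16 h of induction few genes of the set were called, near the shares of all genes. Here 3 genes were higher and 1 lower, against 6.23% and 4.69% of all tested genes, and the median change of the G2-M and mitosis genes was 0.05, or -0.03 with the DESeq2 size factors. CENPE (0.76 ± 0.16, adjusted p = 0.00131), KIF14, a cytokinesis kinesin (0.59 ± 0.15, adjusted p = 0.0079), and ASPM (0.40 ± 0.12, adjusted p = 0.0234) were higher, and BUB1 was lower (-0.39 ± 0.11, adjusted p = 0.015). No call of the 4 held in every fit with 1 library left out: the count was 1 without replicate 1 of bcat 0 h and 2 without each of replicate 2 of bcat 0 h, replicate 1 of bcat 16 h and replicate 2 of bcat 16 h. The balance turned without replicate 1 of bcat 0 h, to 0 higher and 1 lower, with the DESeq2 size factors, to 2 higher and 3 lower, with only the bcat libraries, to 1 higher and 2 lower, and with DESeq2's Wald test, to 3 higher and 4 lower.

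At 24 h of induction 5 genes were higher and 0 lower, against 6.87% and 5.96% of all tested genes. CENPE had 165 and 147 CPM at 24 h, against 67.0 and 95.3 CPM at 0 h (0.92 ± 0.16, adjusted p = 9.72e-05). KIF14 had 78.5 and 78.7 CPM, against 43.8 and 49.6 CPM at 0 h (0.74 ± 0.15, adjusted p = 0.000745). ASPM had 189 and 179.9 CPM, against 122 and 127 CPM at 0 h (0.56 ± 0.12, adjusted p = 0.0011). For these 3 the groups did not overlap and the call held with any 1 library left out. CENPF (0.53 ± 0.16, adjusted p = 0.0263) and CDC25C (0.52 ± 0.15, adjusted p = 0.0197) did not hold, at up to 0.251 and 0.129, and the count was 3 without replicate 1 of bcat 0 h, replicate 2 of bcat 0 h or replicate 1 of bcat 24 h. With the DESeq2 size factors 5 were higher and 1 lower.

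Between 8 and 24 h of induction nearly the whole set rose. At 24 h 31 genes were higher and 0 lower than at 8 h, where 5.56% and 6.57% of all tested genes were, and all 35 fitted changes lay above 0. NUF2 had 45.6 and 49.5 CPM at 24 h, against 21.0 and 23.3 CPM at 8 h (1.11 ± 0.15, adjusted p = 7.3e-06). PRC1, which bundles the microtubules of the central spindle, had 85.4 and 91.2 CPM, against 41.5 and 46.8 CPM at 8 h (1.01 ± 0.13, adjusted p = 4.76e-06). Of the 31 calls 18 held in every fit with 1 library left out, and 27 genes were called without the 4 libraries in doubt. The 4 genes not called were CCNB1, CCNA2, CDK1 and ANLN, a scaffold of the cleavage furrow.

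At 48 h of induction 5 genes were lower and 3 higher, against 10.1% and 11.2% of all tested genes, which is near the share of all genes. BUB1 had 214 and 188 CPM at 48 h, against 340.2 and 344.5 CPM at 0 h (-0.77 ± 0.11, adjusted p = 2.78e-06). AURKA had 82.4 and 66.8 CPM, against 106 and 116 CPM (-0.57 ± 0.12, adjusted p = 0.00068). CENPE had 202 and 136 CPM, against 67.0 and 95.3 CPM (1.04 ± 0.16, adjusted p = 8e-06). These 3 calls held in every fit with 1 library left out. CDC25B rose by 0.72 ± 0.17 (adjusted p = 0.00197) but lost the call without replicate 2 of bcat 0 h or replicate 2 of bcat 48 h, at up to 0.0692. The count of 8 was 5 without replicate 1 of bcat 0 h or replicate 2 of bcat 0 h. The balance turned to 2 lower and 4 higher without the 4 libraries in doubt or with no low-count filter, and to 2 lower and 5 higher without replicate 2 of bcat 48 h.

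At 72 h of induction 8 genes were lower and 3 higher, where 13.6% of all tested genes were lower and 13.6% higher. BUB1 reached 142 and 124 CPM at 72 h, against 340.2 and 344.5 CPM at 0 h (-1.36 ± 0.11, adjusted p = 3.98e-11). AURKA had 69.3 and 58.8 CPM, against 106 and 116 CPM (-0.80 ± 0.12, adjusted p = 7.09e-06). HMMR had 80.2 and 68.0 CPM, against 119.7 and 133 CPM (-0.77 ± 0.14, adjusted p = 0.000103). In the other direction CDC25B had 39.7 and 40.2 CPM, against 22.1 and 20.3 CPM (0.92 ± 0.17, adjusted p = 8.09e-05). CENPE was higher by 0.57 ± 0.16 (adjusted p = 0.00689), a call lost without replicate 1 of bcat 0 h, at 0.123. The pluripotency markers summed to 1695 to 1900 CPM at 72 h, against 3773 to 4267 CPM at 0 h. The presomitic mesoderm markers summed to 46.1 to 70.1 CPM, against 2.35 to 4.39 CPM. The fibroblast genes, mainly COL1A1, COL1A2 and THY1, summed to 458.6 to 495.0 CPM, against 275.0 to 332.7 CPM at 0 h. Their part in the result was not tested.

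Of the later steps, 48 h compared with 24 h of induction gave 6 lower and 0 higher genes, against 4.36% and 4.64% of all tested genes. BUB1 led them (-0.75 ± 0.11, adjusted p = 8.96e-06), followed by HMMR (-0.51 ± 0.14, adjusted p = 0.015), and 5 of the 6 calls depended on 1 library. The count was 1 without replicate 2 of bcat 48 h, 10 without replicate 1 of bcat 48 h, 3 without replicate 1 of bcat 24 h, 3 without replicate 2 of bcat 24 h, and 1 without the 4 libraries in doubt. From 48 to 72 h 3 genes were lower and 0 higher, against 3.46% and 2.72%. They were BUB1 (-0.60 ± 0.11, adjusted p = 0.000609), DLGAP5 (-0.49 ± 0.12, adjusted p = 0.0139) and CCNA2 (-0.39 ± 0.11, adjusted p = 0.0332). The count of 3 was 1 without replicate 1 of bcat 48 h or replicate 2 of bcat 72 h, 5 without replicate 2 of bcat 48 h and 7 without the 4 libraries in doubt.

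At 8 h of recombinant Wnt3a few genes were called, in the set as among all tested genes. Of the 35 genes 1 was higher and 1 lower, where 2.28% and 1.18% of all tested genes were. BUB1 had 219.6 and 224 CPM at 8 h, against 146 and 181 CPM at 0 h (0.43 ± 0.11, adjusted p = 0.02), and BUB1B had 137 and 136 CPM, against 175 and 179 CPM at 0 h (-0.38 ± 0.11, adjusted p = 0.0428). HMMR had 64.0 and 63.4 CPM at 8 h, between the 57.2 and 84.8 CPM of 0 h, and TOP2A had 425 and 412 CPM, between 388 and 476 CPM. The count of 2 became 0 without replicate 1 of Wnt3a 0 h, replicate 1 of Wnt3a 8 h, replicate 2 of Wnt3a 8 h or the 4 libraries in doubt, and 6 without replicate 2 of Wnt3a 0 h. With the columns as deposited 2 were higher and 1 lower.

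At 24 h of Wnt3a 11 genes were higher and 0 lower, against 9.32% and 10.9% of all tested genes, and the median was 0.25, against 0.045 over all tested genes. CENPA, the histone variant that marks centromeres, had 17.4 and 18.3 CPM at 24 h, against 4.20 and 8.40 CPM at 0 h (1.28 ± 0.19, adjusted p = 1.56e-05). NUF2 had 34.7 and 36.7 CPM, against 11.6 and 18.9 CPM (1.09 ± 0.16, adjusted p = 1.08e-05). In the shallow replicate 1 of Wnt3a 0 h CENPA rested on 13 reads and NUF2 on 36. CDK1 had 138 and 145 CPM, against 71.5 and 95.3 CPM (0.73 ± 0.15, adjusted p = 0.000853). BUB1 had 227 and 239.5 CPM, against 146 and 181 CPM (0.50 ± 0.11, adjusted p = 0.00119).

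For all 4 genes both 24 h libraries lay above both 0 h libraries, and 9 of the 11 calls held in every fit with 1 library left out. AURKB (0.41 ± 0.12) and KIF2C, a microtubule-depolymerising kinesin (0.55 ± 0.14), lost theirs without replicate 1 of Wnt3a 0 h or replicate 2 of Wnt3a 24 h, at up to 0.135 and 0.124. Among genes of the set not called, CCNB1 had 199 and 216 CPM at 24 h, against 156 and 203 CPM, MKI67 had 117 and 104 CPM, against 85.1 and 89.2 CPM, and KIF11 had 108 and 101 CPM, against 114 and 143 CPM at 0 h. Mitochondrial rRNA took 16.3 and 14.1% of reads at 24 h, against 7.51 and 6.67% at 0 h, and long intergenic RNAs had a median change of 0.50, against -0.03 for protein-coding genes. The part of either in the result was not tested.

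The 24 h level was set against 8 h as well. Here 13 genes were higher and 1 lower, where 10.8% and 15.3% of all tested genes were. CENPA had 17.4 and 18.3 CPM at 24 h, against 9.34 and 9.40 CPM at 8 h (0.93 ± 0.18, adjusted p = 0.000227), and PRC1 had 84.3 and 85.8 CPM, against 47.4 and 46.8 CPM (0.85 ± 0.13, adjusted p = 1.63e-05). KIF11 was lower (-0.42 ± 0.13, adjusted p = 0.019), a call lost without replicate 1 of Wnt3a 8 h, replicate 1 of Wnt3a 24 h or replicate 2 of Wnt3a 24 h, at up to 0.138. The count of 14 was 6 without replicate 1 of Wnt3a 8 h, 6 without replicate 2 of Wnt3a 8 h, 7 without replicate 1 of Wnt3a 24 h and 5 without replicate 2 of Wnt3a 24 h.

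At 48 h of Wnt3a 10 genes were higher and 1 lower, against 7.57% and 8.57% of all tested genes. NUF2 had 31.9 and 28.9 CPM at 48 h, against 11.6 and 18.9 CPM at 0 h (0.86 ± 0.16, adjusted p = 0.000257), and KIF20A, a kinesin of the central spindle, had 113 and 117 CPM, against 64.0 and 70.0 CPM (0.77 ± 0.14, adjusted p = 0.000146). BUB1 and BUB1B went opposite ways: BUB1 had 251 and 267 CPM, against 146 and 181 CPM (0.65 ± 0.11, adjusted p = 5.05e-05), and BUB1B had 114 and 113 CPM, against 175 and 179 CPM (-0.65 ± 0.11, adjusted p = 5.57e-05). The count of 11 was 5 without replicate 1 of Wnt3a 0 h, 7 without replicate 1 of Wnt3a 48 h and 5 without the 4 libraries in doubt, and BUB1, BUB1B, KIF20A, NUF2 and NUSAP1, a spindle-associated protein, held in every fit with 1 library left out. The primitive streak markers summed to 655.1 to 716.0 CPM at 48 h, against 0.793 to 0.970 CPM at 0 h, and the 4 endoderm markers to 53.4 to 67.7 CPM, against 0.162 to 0.323 CPM. Their part in the result was not tested. Compared with 24 h, 1 gene was higher and 2 lower, against 10.0% and 8.97% of all tested genes, so both shares lay below those of all genes. BUB1B (-0.56 ± 0.11, adjusted p = 0.000403) held in every fit with 1 library left out, while CENPA (-0.62 ± 0.18, adjusted p = 0.0157) and KIF11 (0.40 ± 0.13, adjusted p = 0.0343) did not, at up to 0.121 and 0.2. That count of 3 was 1 without replicate 2 of Wnt3a 24 h or replicate 1 of Wnt3a 48 h and 7 without the 4 libraries in doubt, and with no low-count filter 2 were higher and 1 lower.

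The single 72 h Wnt3a library had 6 genes higher and 1 lower than 0 h, against 8.43% and 7.94% of all tested genes, on the assumption that it varies like the other groups. KIF20A stood at 129 CPM at 72 h, against 64.0 and 70.0 CPM at 0 h (0.93 ± 0.16, adjusted p = 9.26e-05), and CENPA at 13.4 CPM, against 4.20 and 8.40 CPM (0.87 ± 0.22, adjusted p = 0.00605). BUB1B stood at 111 CPM, against 175 and 179 CPM (-0.68 ± 0.14, adjusted p = 0.000504). These 3 and NUSAP1 kept their calls without either 0 h library. With rRNA genes removed 6 were higher and 2 lower.

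At 96 h of Wnt3a most of the set was low. Of the 35 genes 23 were lower and 3 higher, where 21.0% and 18.8% of all tested genes were. The median was -0.53, against 0.066 over all tested genes, and the summed level was 2655 and 2502 CPM at 96 h, against 3291 and 3993 CPM at 0 h. Genes of the checkpoint and kinetochore were all called, 7 lower and 2 higher. With the DESeq2 size factors the median of all tested genes was 0.17.

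BUB1B had 70.3 and 71.5 CPM at 96 h, against 175 and 179 CPM at 0 h, a 2.5-fold lower level (-1.32 ± 0.11, adjusted p = 8.12e-11). KIF11 had 51.8 and 67.9 CPM, against 114 and 143 CPM (-1.12 ± 0.14, adjusted p = 9.33e-08). CCNB1 had 95.2 and 90.9 CPM, against 156 and 203 CPM (-0.96 ± 0.12, adjusted p = 2.13e-07), and CCNA2 had 101 and 83.7 CPM, against 159 and 204 CPM (-0.99 ± 0.11, adjusted p = 3.89e-08). In all 4 both 96 h libraries lay below both 0 h libraries.

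HMMR had 38.3 and 39.3 CPM at 96 h, against 57.2 and 84.8 CPM (-0.92 ± 0.14, adjusted p = 6.05e-06). BUB1 had 105 and 87.9 CPM, against 146 and 181 CPM (-0.78 ± 0.11, adjusted p = 1.19e-06), and CDC20 had 83.9 and 61.4 CPM, against 112 and 135 CPM (-0.78 ± 0.13, adjusted p = 2.31e-05). These groups did not overlap either.

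Against that direction CENPA was higher at 14.2 and 11.7 CPM, against 4.20 and 8.40 CPM (0.82 ± 0.19, adjusted p = 0.00112), CDC25B at 32.8 and 28.8 CPM, against 18.8 and 20.3 CPM (0.64 ± 0.16, adjusted p = 0.00203), and NUF2 at 23.5 and 23.8 CPM, against 11.6 and 18.9 CPM (0.50 ± 0.16, adjusted p = 0.0138). MKI67 had 97.0 and 98.7 CPM at 96 h, against 85.1 and 89.2 CPM, and was not called (0.16 ± 0.17, adjusted p = 0.468). CDK1, PLK1, UBE2C, KIF2C, NUSAP1, KIF20A, PRC1 and ANLN were not called either, with log2 changes from -0.24 to 0.27.

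Of the 26 calls at 96 h 15 held in every fit with 1 library left out, and NUF2 lost its call without replicate 1 of Wnt3a 0 h or replicate 2 of Wnt3a 96 h, at up to 0.121. Without replicate 2 of Wnt3a 0 h the count was 16. Mitochondrial rRNA took 14.1 and 14.3% of reads at 96 h, against 7.51 and 6.67% at 0 h, and long intergenic RNAs had a median change of 0.68, against -0.05 for protein-coding genes. All 4 endoderm markers were detected, with a summed level of 160.0 to 235.7 CPM at 96 h, against 0.162 to 0.323 CPM at 0 h, and the 7 pluripotency markers summed to 2100 to 2320 CPM, against 3681 to 4446 CPM. Their part in the result was not tested.

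By 120 h of Wnt3a 10 genes were lower and 3 higher, against 15.6% and 12.2% of all tested genes. BUB1B had 80.4 and 89.6 CPM at 120 h, against 175 and 179 CPM at 0 h (-1.06 ± 0.11, adjusted p = 8.73e-09), and BIRC5 had 82.7 and 83.8 CPM, against 112 and 126 CPM (-0.53 ± 0.11, adjusted p = 0.000471). CDK1 was higher at 130.5 and 148 CPM, against 71.5 and 95.3 CPM (0.71 ± 0.15, adjusted p = 0.000743), as was NUF2 (0.62 ± 0.16, adjusted p = 0.00451). The 5 calls that held in every fit with 1 library left out were these 4 and KIF20A, and the count of 13 was 7 without replicate 2 of Wnt3a 0 h, where 2 were lower and 5 higher. With the DESeq2 size factors 8 were lower and 7 higher. The endoderm markers summed to 140.6 to 232.7 CPM at 120 h, against 0.162 to 0.323 CPM at 0 h, and the pluripotency markers to 2451 to 2591 CPM, against 3681 to 4446 CPM, and their part in the result was not tested. Compared with 48 h, 16 genes were lower and 0 higher at 120 h, against 8.62% and 6.15% of all tested genes. BUB1 had 117 and 119.7 CPM at 120 h, against 251 and 267 CPM at 48 h (-1.13 ± 0.11, adjusted p = 5.04e-09), and HMMR had 48.9 and 54.6 CPM, against 93.7 and 96.9 CPM (-0.88 ± 0.14, adjusted p = 3.42e-05). That count was 10 without either replicate 1 of Wnt3a 120 h or replicate 2 of Wnt3a 120 h.

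**Figure D4:**
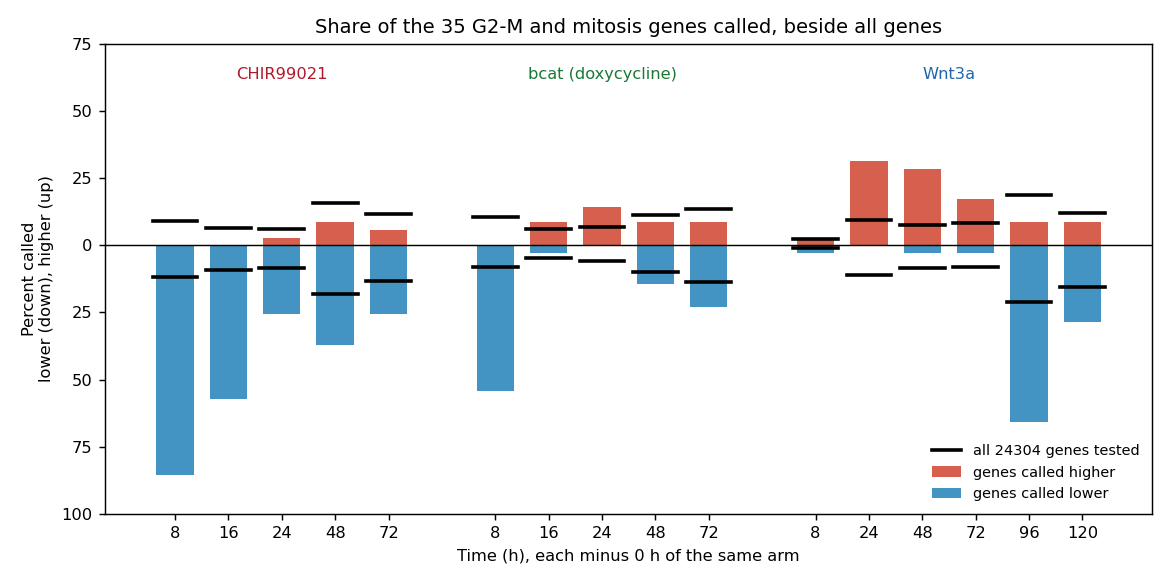
Percent of the 35 genes called higher (red, upward) and lower (blue, downward) than 0 h at each time (x, in h) in the CHIR99021, bcat and Wnt3a arms; black lines give the percent of all 24304 tested genes. At CHIR99021 8 h 30 of the 35 genes are called lower, beside 11.7% of all tested genes.

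The arms were set against each other by testing the difference of their changes from their own 0 h, so that a lower change does not mean a lower level. At 8 h 26 genes had a lower change in CHIR99021 than in Wnt3a and 0 a higher one, where 3.3% and 1.37% of all tested genes did. DLGAP5 differed by -1.32 ± 0.17 (adjusted p = 2.97e-05) and KIF20A by -1.30 ± 0.19 (adjusted p = 0.000107). HMMR differed by -1.25 ± 0.20 (adjusted p = 0.000231) and TOP2A by -1.12 ± 0.17 (adjusted p = 0.000179). These 4 were among 15 calls that held in every fit with 1 library left out. The count was 16 without replicate 1 of CHIR 8 h or replicate 1 of Wnt3a 0 h, and 14 without the 4 libraries in doubt.

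Between CHIR99021 and induced beta-catenin 1 gene differed at 8 h. ASPM had 97.9 and 95.7 CPM at CHIR99021 8 h, against 146.5 and 150.2 CPM at 0 h, and 133 and 130.5 CPM at 8 h of induction, against 122 and 127 CPM at 0 h. Its changes differed by -0.70 ± 0.16 (adjusted p = 0.0164), beside 2.08% of all tested genes with a lower and 0.617% with a higher change. That call became 0 without replicate 1 of CHIR 0 h, replicate 2 of CHIR 0 h, replicate 1 of CHIR 8 h, replicate 2 of CHIR 8 h, replicate 1 of bcat 0 h, replicate 1 of bcat 8 h or the 4 libraries in doubt, and 2 genes were called without replicate 2 of bcat 8 h. With the DESeq2 size factors 1 gene had a higher and 1 a lower change. A missed threshold does not show that the arms acted alike, and the median difference was -0.25, against -0.11 over all tested genes (-0.002 with the DESeq2 size factors). Wnt3a against bcat at 8 h gave 16 genes with a higher and 0 with a lower change, where 2.63% and 2.97% of all tested genes did, led by BUB1 (1.23 ± 0.15, adjusted p = 6.71e-06) and NUF2 (1.14 ± 0.23, adjusted p = 0.00257). The count was 10 without the 4 libraries in doubt.

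At 24 h 14 genes had a lower change in CHIR99021 than in Wnt3a and 0 a higher one, where 5.56% and 4.37% of all tested genes did. CENPA differed by -1.19 ± 0.26 (adjusted p = 0.00277) and NUSAP1 by -1.02 ± 0.17 (adjusted p = 0.000142), and 11 of the 14 calls held in every fit with 1 library left out. Compared with bcat, 9 genes had a lower change in CHIR99021 and 0 a higher one, against 3.3% and 1.65% of all tested genes, whose median was -0.135 (-0.017 with the DESeq2 size factors), with KIF14 at -0.97 ± 0.20 (adjusted p = 0.00398) and BUB1B at -0.87 ± 0.15 (adjusted p = 0.000693). The count of 9 was 4 without replicate 2 of CHIR 0 h, replicate 1 of CHIR 24 h or replicate 1 of bcat 0 h, 5 without replicate 2 of CHIR 24 h, replicate 1 of bcat 24 h or replicate 2 of bcat 24 h, and 3 without the 4 libraries in doubt. Wnt3a against bcat gave 10 genes with a higher change and 2 with a lower one, where 5.96% and 9.06% of all tested genes did. CENPA (0.83 ± 0.27, adjusted p = 0.0338) and CDK1 (0.83 ± 0.21, adjusted p = 0.00824) had a higher change in Wnt3a, and CENPE (-0.82 ± 0.22, adjusted p = 0.0103) and KIF11 (-0.70 ± 0.19, adjusted p = 0.0113) a lower one. The levels at 24 h lay the other way for CENPA, with 17.4 and 18.3 CPM in Wnt3a, against 25.1 and 22.5 CPM in bcat, and for CDK1, with 138 and 145 CPM in Wnt3a, against 156 and 165 CPM in bcat. Only UBE2C held in every fit with 1 library left out (0.70 ± 0.17, adjusted p = 0.00548). The count of 12 was 4 without replicate 2 of bcat 0 h, 6 without replicate 2 of bcat 24 h, 7 without replicate 1 of Wnt3a 0 h, 3 without replicate 2 of Wnt3a 24 h and 2 without the 4 libraries in doubt. The balance turned to 2 higher and 5 lower without replicate 1 of Wnt3a 0 h, and to 2 higher and 4 lower with no low-count filter.

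At 48 h 11 genes had a lower change in CHIR99021 than in Wnt3a and 1 a higher one, against 9.35% and 6.75% of all tested genes. BUB1 differed by -1.32 ± 0.15 (adjusted p = 1.05e-07) and ASPM by -0.93 ± 0.16 (adjusted p = 9.01e-05), and both held in every fit with 1 library left out. CDC25B had the higher change (0.78 ± 0.22, adjusted p = 0.0134), a call lost without replicate 2 of Wnt3a 0 h, at 0.11. Compared with bcat, 6 genes had a lower change in CHIR99021 and 0 a higher one, against 10.6% and 5.95% of all tested genes, with CENPE at -0.91 ± 0.22 (adjusted p = 0.00334), lost without replicate 1 of bcat 48 h at 0.0646, and ASPM at -0.83 ± 0.17 (adjusted p = 0.00046). That count was 3 without replicate 1 of bcat 48 h and 11 without replicate 2 of bcat 48 h, and with the DESeq2 size factors 3 had a higher and 6 a lower change. In Wnt3a 7 genes had a higher change than in bcat and 2 a lower one, against 5.28% and 6.84%. BUB1 (1.42 ± 0.15, adjusted p = 9.24e-08) and HMMR (0.84 ± 0.20, adjusted p = 0.00482) held in every fit with 1 library left out, and CDC25B (-0.73 ± 0.24, adjusted p = 0.0396) and CCNA2 (-0.51 ± 0.16, adjusted p = 0.0343) did not, at up to 0.214 and 0.289. The count of 9 was 5 without replicate 1 of Wnt3a 48 h or replicate 2 of Wnt3a 48 h and 3 without the 4 libraries in doubt, of which 1 was higher and 2 lower.

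The 0 h groups were not alike. In Wnt3a 0 h 15 genes were lower and 0 higher than in CHIR99021 0 h, both untreated H9, where 6.76% and 4.12% of all tested genes were. CENPA had 4.20 and 8.40 CPM in Wnt3a 0 h, against 14.9 and 14.9 CPM in CHIR99021 0 h (-1.02 ± 0.19, adjusted p = 0.000603), and its 4.20 CPM rested on 13 reads. BUB1 had 146 and 181 CPM, against 276 and 287 CPM (-0.77 ± 0.11, adjusted p = 1.66e-05). The count was 7 without replicate 1 of Wnt3a 0 h and 8 without the 4 libraries in doubt. Changes in the Wnt3a arm are measured from this lower start, and a difference between arms cannot be told apart from a difference between their 0 h groups.

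The uninduced bcat line had 5 genes higher and 0 lower than CHIR99021 0 h, against 6.06% and 9.6% of all tested genes. The total count thus lay near that of all genes. TPX2, which activates AURKA on the spindle, had 262 and 285 CPM in the uninduced line, against 186.5 and 185.5 CPM in CHIR99021 0 h (0.56 ± 0.10, adjusted p = 0.000285), and its call held in every fit with 1 library left out. CDK1, NUF2, NUSAP1 and CCNB2 were higher by 0.34 to 0.45, and none of the 4 held. The count of 5 was 1 without replicate 1 of CHIR 0 h or replicate 2 of CHIR 0 h and 2 without replicate 2 of bcat 0 h.

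Across the 16 comparisons with 0 h the genes differed in how often and in which direction they were called. BUB1B was lower in 13 and higher in 0, HMMR lower in 9, TOP2A lower in 8, and AURKA and NDC80 lower in 7. MKI67 was lower in 1, at CHIR99021 8 h, PLK1 was lower in 2 and CCNB1 lower in 3. NUF2 and CENPE were each higher in 6, CDC25B higher in 5, and CENPA higher in 4. BUB1 was higher in 3 and lower in 8. The share of all tested genes called lower ran from 1.18% at Wnt3a 8 h to 21.0% at Wnt3a 96 h. The share called higher ran from 2.28% to 18.8% at the same times. Comparisons within an arm share their 0 h libraries, and how often genes outside the set were called was not counted.

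**Figure D5:**
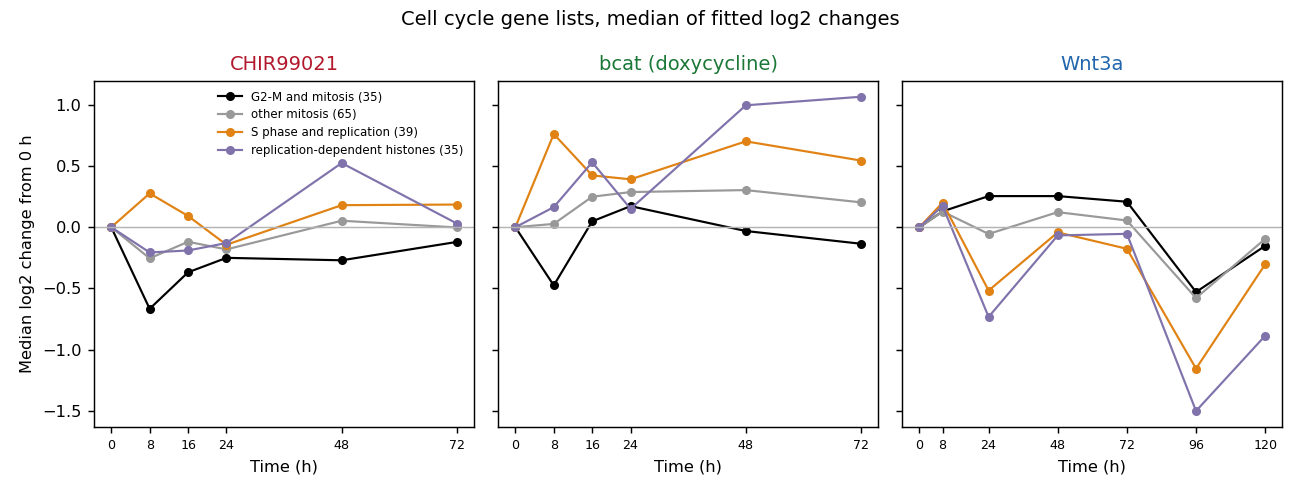
Median fitted log2 change from 0 h (y) against time in h (x) of the 35 G2-M and mitosis genes (black), 65 other mitosis genes (grey), 39 S phase genes (orange) and 35 replication-dependent histone genes (purple), 1 panel per arm. At 8 h of induction the S phase median is 0.76 and that of the 35 genes -0.48.

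Other genes of mitosis were mostly called lower at Wnt3a 96 h. Of 65 further mitosis genes, 25 were lower and 6 higher at CHIR99021 8 h, with a median of -0.25, where 11.7% of all tested genes were lower and 9.19% higher. At 8 h of induction 11 were lower and 9 higher, with a median of 0.03, where 8.01% and 10.7% of all tested genes were. The higher shares of both lie near those of all genes. FAM83D, a spindle adaptor, led the falls at CHIR99021 8 h (-1.09, adjusted p = 6.7e-08). At Wnt3a 96 h 46 of the 65 were lower and 2 higher, against 21.0% and 18.8% of all tested genes, with SKA3, a kinetochore protein (-1.56, adjusted p = 4.8e-09), and NCAPH, a condensin subunit (-1.47, adjusted p = 8.5e-10), the largest. At 24 h of induction 18 were higher and 1 lower, against 6.87% and 5.96% of all tested genes, but 6 were higher without the 4 libraries in doubt. Of 17 core genes of the anaphase-promoting complex, 2 were higher and 3 lower at CHIR99021 8 h, near the shares of all genes, and 12 were lower and 0 higher at Wnt3a 96 h.

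S phase genes were mostly called higher at 8 h of induction. Of 39 such genes, 13 were higher and 1 lower at CHIR99021 8 h, against 9.19% and 11.7% of all tested genes, and 25 were not called, with RFC3, a clamp loader subunit (1.14, adjusted p = 4.7e-08), in the lead. With only the CHIR99021 libraries in the fit, 22 were higher and 2 lower. At Wnt3a 8 h 0 were higher and 0 lower, against 2.28% and 1.18% of all tested genes. At 8 h of induction 29 were higher and 0 lower, against 10.7% and 8.01% of all tested genes, with a median of 0.76, led by UHRF1, which maintains DNA methylation at replication (2.72, adjusted p = 1.7e-10). At 48 h of induction 35 of the 39 were higher and 0 lower, against 11.2% and 10.1% of all tested genes. In Wnt3a 27 were lower and 0 higher at 24 h, against 10.9% and 9.32% of all tested genes, where 11 of the 35 G2-M and mitosis genes were higher, and 35 were lower and 1 higher at 96 h, against 21.0% and 18.8%, led by the ribonucleotide reductase subunit RRM2 (-1.83, adjusted p = 1.7e-10). The difference between the lists was not tested.

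Replication-dependent histone genes, whose transcripts are made in S phase, were mostly called higher at 48 h of induction and lower at 24, 96 and 120 h of Wnt3a. Of 35, 30 were higher and 1 lower at 48 h of induction, with a median of 0.99, where 11.2% of all tested genes were higher and 10.1% lower. At 24 h of induction 2 were higher and 0 lower, against 6.87% and 5.96% of all tested genes, so the higher share lay near that of all genes. At CHIR99021 48 h 23 were higher and 1 lower, against 15.7% and 18.1% of all tested genes. In Wnt3a 29 were lower and 0 higher at 24 h, against 10.9% and 9.32%, all 35 were lower at 96 h, against 21.0%, with a median of -1.5, and 34 were lower at 120 h, against 15.6%. Between these times 3 were lower and 0 higher at 48 h, against 8.57% and 7.57% of all tested genes. At 72 h 1 was lower and 0 higher, against 7.94% and 8.43%. At 8 h 1 was higher and 0 lower, against 2.28% and 1.18%. The lower share at 48 h and the higher share at 8 h lay near those of all genes. Copies in this family are near identical, so the assignment of reads to single histone genes is uncertain.

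Regulators upstream of the set were mixed. FOXM1, the activator of G2 transcription, was not called at CHIR99021 8 h (-0.18) or at 8 h of induction (0.30), was higher at CHIR99021 16 h (0.39) and at 48 and 72 h of induction (0.58 and 0.52), and was lower at Wnt3a 96 h (-0.67). Of 23 cell cycle transcription factors, 8 were higher and 2 lower at CHIR99021 8 h, against 9.19% and 11.7% of all tested genes, so the lower share lay near that of all genes, with RBL1, a pocket protein of the repressive DREAM complex, at 1.02 and its paralog RBL2 at -0.72. At 8 h of induction 11 were higher and 0 lower, against 10.7% and 8.01%, with E2F2 higher by 2.08.

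CDKN1A, the inhibitor p21, was lower at 8 h in all 3 arms, with log2 changes of -1.37 in CHIR99021, -1.97 in bcat and -0.99 in Wnt3a, and also at CHIR99021 16 h (-1.25) and at 16 and 72 h of induction (-1.67 and -0.96). It was higher at CHIR99021 24 and 48 h (0.75 and 1.33) and at Wnt3a 24, 96 and 120 h (1.22, 1.62 and 0.88). WEE1, the kinase that holds CDK1 inactive, was higher at CHIR99021 8 h (0.55) and at every Wnt3a time from 24 h, by 0.65 to 1.95, and was lower at CHIR99021 48 h (-0.54). CCND1, the G1 cyclin that is a textbook target of beta-catenin, was higher at every CHIR99021 and bcat time, by 3.54 at 8 h of induction and 2.03 at CHIR99021 8 h, and at Wnt3a 8, 24 and 120 h (1.59, 1.18 and 0.83).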

How the data were processed

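Total RNA was sequenced with a stranded TruSeq Total RNA kit, per the labels' protocols. The deposited table holds estimated counts per gene from kallisto 0.43.0, per the submitters' processing notes; the sources used here do not give the genome build or annotation. Within each library the deposited values were multiples of 1 constant (0.2646 to 6.5763), by which they were divided and then rounded to whole counts; 56.9 to 81.1% of values up to 20 came out within 0.1 of a whole number. Spreadsheet software had turned 27 gene symbols into dates. Identical Wnt3a 72 h columns counted as 1 library, leaving 37.

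Counts were fitted with edgeR 4.0.16 in R 4.3.3 (quasi-likelihood, robust, trended dispersion, TMM scaling, 19 group means, 18 residual degrees of freedom) after filterByExpr, with Benjamini-Hochberg adjustment over 24304 genes in each of 36 comparisons. Every adjusted p is from this fit. Fits leaving out 1 library kept the trended dispersions and genes of the full fit. limma 3.58.1 and DESeq2 1.42.0 were alternatives. The procedure was tested on simulated data. Genes described by name were 12 textbook members, the called genes with the largest change per comparison and list, and all where 5 or fewer were called; others were chosen after their values were seen. The 35 genes and the other lists were chosen with earlier results of these data known.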

Additional observations from a re-analysis of the deposited data

Results flagged for a closer look

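Changes from 0 h differed between arms at the same time, by a test of the difference of the changes (edgeR, adjusted p below 0.05 over all tested genes). Between CHIR99021 and Wnt3a 26 of the 35 genes differed at 8 h, 14 at 24 h and 12 at 48 h. Of all tested genes 3.3% had a lower and 1.37% a higher change in CHIR99021 at 8 h. These shares were 5.56% and 4.37% at 24 h and 9.35% and 6.75% at 48 h. Between CHIR99021 and induced beta-catenin 1 gene differed at 8 h, 9 at 24 h and 6 at 48 h. Here 2.08% of all tested genes had a lower and 0.617% a higher change in CHIR99021 at 8 h. These shares were 3.3% and 1.65% at 24 h and 10.6% and 5.95% at 48 h. The total counts at 8 and 48 h thus lay near those of all genes. Between Wnt3a and induced beta-catenin 16 differed at 8 h, 12 at 24 h and 9 at 48 h. In this comparison 2.97% of all tested genes had a lower and 2.63% a higher change in Wnt3a at 8 h. These shares were 9.06% and 5.96% at 24 h and 6.84% and 5.28% at 48 h. The arms share no 0 h library, and 15 of the 35 genes differed between Wnt3a 0 h and CHIR99021 0 h and 5 between bcat 0 h and CHIR99021 0 h, so a difference between arms and one between 0 h groups cannot be told apart. Compared with CHIR99021 0 h, 6.76% of all tested genes were lower and 4.12% higher in Wnt3a 0 h. In bcat 0 h 9.6% were lower and 6.06% higher.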

How the results depend on the processing

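Counts of the 35 genes called are given here where they moved by over 1.5 times, with the count of the main analysis in brackets. Of the 204 calls from 0 h, between 175 (no low-count filter) and 203 (DESeq2's Wald test) were kept under each alternative, and no called change turned its direction under any alternative. The cause of the moves was not tested. With DESeq2's Wald test the count was 7 in bcat 16 h (4), 8 in bcat 24 h (5), 12 in Wnt3a 72 h (7), 5 in CHIR 72 h against 48 h (3), 11 in bcat 48 h against 24 h (6), 5 in bcat 72 h against 48 h (3), 10 in Wnt3a 48 h against 24 h (3), 3 in CHIR against bcat at 8 h (1), 10 in CHIR against bcat at 48 h (6), 17 in Wnt3a against bcat at 48 h (9) and 10 in bcat 0 h against CHIR 0 h (5). With DESeq2 size factors in edgeR the count was 8 in Wnt3a 48 h against 24 h (3), 2 in CHIR against bcat at 8 h (1), 15 in Wnt3a against bcat at 48 h (9) and 10 in bcat 0 h against CHIR 0 h (5). With the columns as deposited the count was 2 in CHIR against bcat at 8 h (1), 14 in Wnt3a against bcat at 48 h (9) and 9 in bcat 0 h against CHIR 0 h (5). With only the libraries of the arms compared the count was 0 in Wnt3a 8 h (2), 7 in Wnt3a 120 h (13), 13 in CHIR 48 h against 24 h (8), 7 in CHIR 72 h against 48 h (3), 7 in Wnt3a 24 h against 8 h (14), 1 in Wnt3a 48 h against 24 h (3), 2 in CHIR against bcat at 8 h (1), 10 in CHIR against bcat at 48 h (6), 5 in Wnt3a against bcat at 48 h (9) and 10 in bcat 0 h against CHIR 0 h (5). With limma-voom the count was 6 in Wnt3a 48 h against 24 h (3) and 3 in CHIR against bcat at 8 h (1). With no low-count filter the count was 0 in Wnt3a 8 h (2), 9 in Wnt3a 24 h against 8 h (14), 6 in Wnt3a against bcat at 24 h (12), 5 in Wnt3a against bcat at 48 h (9) and 2 in bcat 0 h against CHIR 0 h (5). With rRNA genes removed the count was 5 in bcat 72 h against 48 h (3), 7 in Wnt3a 48 h against 24 h (3), 2 in CHIR against bcat at 8 h (1) and 9 in bcat 0 h against CHIR 0 h (5). With the replicate number as a block the count was 5 in Wnt3a against bcat at 48 h (9) and 3 in bcat 0 h against CHIR 0 h (5). With the 4 libraries in doubt left out the count was 0 in Wnt3a 8 h (2), 5 in Wnt3a 48 h (11), 1 in bcat 48 h against 24 h (6), 7 in bcat 72 h against 48 h (3), 7 in Wnt3a 48 h against 24 h (3), 14 in CHIR against Wnt3a at 8 h (26), 0 in CHIR against bcat at 8 h (1), 10 in Wnt3a against bcat at 8 h (16), 3 in CHIR against bcat at 24 h (9), 2 in Wnt3a against bcat at 24 h (12), 3 in Wnt3a against bcat at 48 h (9) and 8 in Wnt3a 0 h against CHIR 0 h (15). With 1 library left out the count ran from 9 to 14 in CHIR 16 h (20), 4 to 6 in CHIR 24 h (10), 9 to 15 in CHIR 48 h (16), 5 to 7 in CHIR 72 h (11), 1 to 2 in bcat 16 h (4), 3 to 4 in bcat 24 h (5), 5 to 7 in bcat 48 h (8), 0 to 6 in Wnt3a 8 h (2) and 5 to 14 in Wnt3a 48 h (11). It ran from 16 to 25 in Wnt3a 96 h (26), 7 to 16 in Wnt3a 120 h (13), 13 to 17 in CHIR 24 h against 8 h (20), 0 to 2 in CHIR 72 h against 48 h (3), 1 to 10 in bcat 48 h against 24 h (6), 1 to 5 in bcat 72 h against 48 h (3), 5 to 7 in Wnt3a 24 h against 8 h (14), 1 to 2 in Wnt3a 48 h against 24 h (3) and 10 to 12 in Wnt3a 120 h against 48 h (16). It ran from 16 to 27 in CHIR against Wnt3a at 8 h (26), 0 to 2 in CHIR against bcat at 8 h (1), 4 to 9 in CHIR against bcat at 24 h (9), 3 to 10 in Wnt3a against bcat at 24 h (12), 3 to 11 in CHIR against bcat at 48 h (6), 5 to 13 in Wnt3a against bcat at 48 h (9), 1 to 5 in bcat 0 h against CHIR 0 h (5) and 7 to 18 in Wnt3a 0 h against CHIR 0 h (15). Replicate numbers did not pair the libraries: deviations from group means correlated between -0.0519 and 0.0552 over same-numbered libraries, 15 pairs an arm, and none was over 0.1. Depth limits replicate 1 of Wnt3a 0 h, the shallowest library at 2.45 M reads.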
